A study of Rattus norvegicus with 4 samples.

Results

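The 10 genes described here encode rat MHC class II molecules, their chaperones and their master regulator, and they were read from liver RNA of 4 rats. They were found by their symbols in the deposited tables of TPM values (a level corrected for transcript length and library size), and all 10 of 10 symbols were present among 16992 genes. The animals were male wild-type Wistar rats, an outbred stock, purchased at 6 weeks of age and acclimatized for at least 1 week. For sequencing, 1 rat was used per condition: inhalation of 4.5% sevoflurane for 6 h, inhalation of 6% desflurane for 6 h, and a control for each agent. Each control rat breathed the same agent for less than 1 minute and was then killed. Food and water were withdrawn from all rats 2 h before the experiment, and the left lateral lobe was sampled at about the same time of day in each. Controls therefore differ from the 6 h rats in the length of anesthesia and, by this schedule, also in the time without food and water. They carry the agent itself, and each condition is 1 animal and 1 library. No difference in the sequencing data could be checked against replicates, and no p-values are given. The paper also ran quantitative PCR (qPCR) on livers of several rats per condition, but for none of the 10 genes. The libraries held between 4.47 and 5.40 Gb of aligned sequence, and hepatocyte markers were high in each (*Alb*, serum albumin, with TPM values between 77519 and 92912). In RNA from whole liver, fewer cells of a type and less RNA per cell cannot be told apart.

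MHC class II molecules sit on the surface of antigen-presenting cells and show peptides from engulfed proteins to CD4+ T cells. Each molecule pairs an alpha and a beta chain, and in the rat the classical pairs are RT1-B (*RT1-Ba*, *RT1-Bb*) and RT1-D (*RT1-Da*, *RT1-Db1*). *Cd74* encodes the invariant chain, which fills the groove and guides new molecules to endosomes, where RT1-DM (*RT1-DMa*, *RT1-DMb*) exchanges its remnant for peptide and RT1-DO (*RT1-DOa*, *RT1-DOb*) restrains RT1-DM. *Ciita* encodes the coactivator that switches these genes on, without binding DNA itself, by docking on factors at their promoters. In liver, Kupffer cells (the resident macrophages), dendritic cells, B cells and sinusoidal endothelial cells are the usual carriers of class II molecules.

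Those promoters share an arrangement that is a textbook mark of the family: an X box, bound by the RFX complex, and a Y box, bound by NF-Y. Promoter sequences of RefSeq on the GRCr8 build, from 250 bases before to 50 bases after each start site, were found for 8 of the 10 genes, and *RT1-DMb* and *Ciita* had no entry. The letters CNNGNNAC for X (N is any base), followed 24 to 45 bases further on by the start of ATTGG for Y, or of CCAAT, its reverse complement, were searched on both strands. These letters were chosen after the promoters had been seen. They were present in 7 of the 8 promoters, and in 2116 of 33469 promoters of all genes (6.32%). ATTGG or CCAAT alone, which overlaps with the pair, was in 37.5% of all promoters. The stretches are shown from 5′ to 3′ on the strand of the gene, with the letters of X and Y in capitals, because they show the arrangement these promoters share.
RT1-Ba, GRCr8 chr20:4576966-4577030, plus strand: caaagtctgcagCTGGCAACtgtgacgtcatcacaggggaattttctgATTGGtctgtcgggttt
RT1-Bb, GRCr8 chr20:4604163-4604226, minus strand: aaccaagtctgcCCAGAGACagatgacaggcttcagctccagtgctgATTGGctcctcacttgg
RT1-Da, GRCr8 chr20:4515318-4515382, plus strand: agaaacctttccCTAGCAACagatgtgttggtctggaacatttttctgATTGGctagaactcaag
RT1-Db1, GRCr8 chr20:4560226-4560289, minus strand: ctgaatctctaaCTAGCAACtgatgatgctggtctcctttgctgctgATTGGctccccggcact
RT1-DOa, GRCr8 chr20:4758514-4758578, minus strand: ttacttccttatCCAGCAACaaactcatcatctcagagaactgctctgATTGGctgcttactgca
RT1-DOb, GRCr8 chr20:4627590-4627651, minus strand: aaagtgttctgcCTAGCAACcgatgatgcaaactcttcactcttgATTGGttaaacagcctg
Cd74, GRCr8 chr18:56526975-56527033, plus strand: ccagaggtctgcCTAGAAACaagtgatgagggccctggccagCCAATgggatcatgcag

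In the RT1 genes shown, Y began between 33 and 36 bases after the start of X. In *Cd74* the distance was 30 bases and Y was written as CCAAT. In *RT1-Bb* the search found a further pair on the opposite strand, which is not shown. The *RT1-DMa* promoter held no such pair of letters, which says only that these letters are not in this window.

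On the rn6 build of the deposited tables, 8 of the 10 genes lie in 1 interval of 243 kb on chromosome 20 (3889425 to 4132616). *Cd74* is on chromosome 18 (56071478 to 56080851, plus strand) and *Ciita* on chromosome 10 (5213350 to 5260608, minus strand). *RT1-DMa* (3935512 to 3938915) and *RT1-DMb* (3945601 to 3952838) each have another copy in the annotation, at 5240975 to 5244378 and 5227053 to 5234290 of the same chromosome. The rows of both copies were summed. In each control library both rows of *RT1-DMa* had the same TPM value (7.49 with the control for sevoflurane and 5.33 with that for desflurane), so reads may have been shared between the copies, and the summed levels of both RT1-DM genes are uncertain. RT1 genes also differ between rat strains, and the part of alleles that differ from the reference in these values was not tested.

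Values below follow 1 order: sevoflurane control, 6 h of sevoflurane, desflurane control, 6 h of desflurane. *Cd74* was the most abundant member, with TPM values of 364, 111, 213 and 252. It made up between 53.0% and 56.0% of the summed TPM of all 10 genes in each library. *RT1-Da* came next, with TPM values of 102.5, 34.4, 66.1 and 77.0. In both genes the sevoflurane control was highest and the 6 h sevoflurane library lowest, and the desflurane libraries lay between.

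The other classical chains had the same order of libraries. *RT1-Bb* had TPM values of 58.3, 23.0, 33.2 and 41.2. *RT1-Ba* had TPM values of 50.3, 11.8, 28.7 and 32.3. *RT1-Db1*, the least abundant of the classical chains, had TPM values of 33.9, 9.60, 23.0 and 25.7. In each of these genes, 6 h of desflurane lay above the desflurane control and below the sevoflurane control.

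The peptide exchange factor was expressed at a lower level. *RT1-DMb* had TPM values of 18.7, 8.47, 13.3 and 16.3. *RT1-DMa* had TPM values of 14.97, 9.13, 10.7 and 11.7, the narrowest range of all members. The order of libraries was again the same, although the 2 rows of *RT1-DMa* parted in both 6 h libraries. After 6 h of sevoflurane the copy inside the interval had a TPM value of 4.36 and the other copy 4.77, against 7.49 for each in the control. After 6 h of desflurane they had 5.18 and 6.48, against 5.33 for each in the control, so only the copy outside the interval was higher there.

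*Ciita* and the RT1-DO genes were at the lower edge of detection. *Ciita* had TPM values of 4.26, 1.14, 2.11 and 2.29, from an average coverage of 7.65, 1.94, 3.64 and 3.86 reads per base. *RT1-DOb* had TPM values of 1.86, 0.406, 0.456 and 1.09, from a coverage of 3.35, 0.686, 0.855 and 1.83. *RT1-DOa*, with TPM values of 1.20, 0.522, 0.933 and 1.57 and a coverage of at most 2.65, was the only member with its highest value after 6 h of desflurane. A gene was counted as detected when its TPM value was higher than 2, and this limit was passed in at least 1 library by 8 of the 10 members, all but the RT1-DO genes. The files give no read counts, so the precision of values at such a coverage is unknown.

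**Figure D1:**
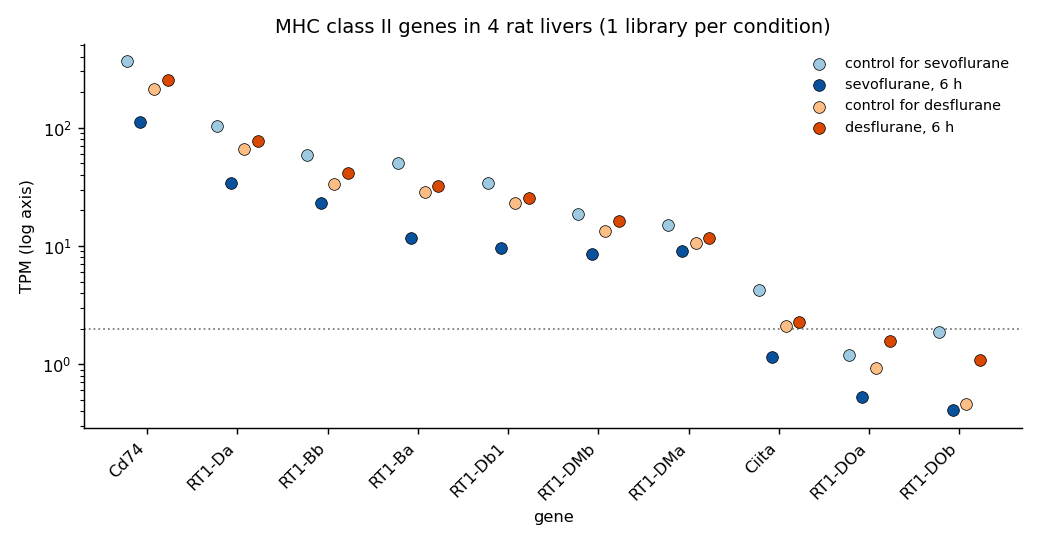
TPM values (log axis) of the 10 MHC class II genes, 1 point per library, with the dotted line at a TPM value of 2. In 9 of 10 genes the sevoflurane control is highest, and in all 10 the 6 h sevoflurane library is lowest, with *Cd74* ranging from 111 to 364.

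Ranked by TPM, *Cd74*, *RT1-Da*, *RT1-Bb*, *RT1-Ba* and *RT1-Db1* held the same places in all 4 libraries, followed by the RT1-DM genes, *Ciita* and the RT1-DO genes. Neighbours in this order swapped only within RT1-DM, where *RT1-DMa* was above *RT1-DMb* after 6 h of sevoflurane alone, and within RT1-DO, where *RT1-DOb* was above *RT1-DOa* in the sevoflurane control alone. With 1 library per condition, no spread is known by which neighbours could be told apart.

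The first comparison set 6 h of sevoflurane against its own control. All 10 class II genes were lower after 6 h of sevoflurane, and their summed TPM was 210 compared with 650 in the control, 3.10-fold lower. By the rule of the study, a gene was called downregulated when its TPM value was higher than 2 in the control and more than 2-fold lower after anesthesia. This rule was met by 7 of the 10 members, whereas it was met by 3.38% of the 9531 genes that passed the TPM limit in that control. Any decrease at all was seen in 43.2% of genes with a mean TPM higher than 2. The median change of the members was -1.30 on the log2(TPM + 1) scale, beside 0.05 over all those genes, and this scale understates the change of genes with low levels.

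The 7 called genes ranged from 4.27-fold to 2.20-fold lower. *RT1-Ba* was 4.27-fold, *Ciita* 3.72-fold, *RT1-Db1* 3.53-fold and *Cd74* 3.28-fold lower. *RT1-Da* was 2.98-fold, *RT1-Bb* 2.53-fold and *RT1-DMb* 2.20-fold lower. All 4 classical chains, the invariant chain and *Ciita* were thus among the 7. *RT1-DMa* did not meet the rule at 1.64-fold. *RT1-DOb* and *RT1-DOa* were 4.59-fold and 2.301-fold lower, but neither could be called because their control values were under the TPM limit. The call of *RT1-DMb* was lost when the row with the higher mean of its 2 copies was kept alone, the copy outside the interval, whose TPM value was 8.48 in the sevoflurane control compared with 4.67 in the 6 h library. The copy inside the interval met the rule on its own, with 10.2 and 3.804.

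The second comparison set 6 h of desflurane against its own control. All 10 members were higher after 6 h of desflurane with TPM as deposited. With median-of-ratios scaling 9 of 10 were higher, and *Ciita* was marginally lower, at a ratio of 0.996. None was called upregulated (2.84% of genes were) and none downregulated (1.53% were), whereas 66.7% of genes with a mean TPM higher than 2 were higher by any amount. The median change was 0.23 for the members and 0.11 for all those genes, and 9 of the 10 members lay above the median of all genes.

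For the genes above the TPM limit the increase was small. *RT1-Bb* was 1.24-fold, *RT1-DMb* 1.23-fold, *Cd74* 1.18-fold and *RT1-Da* 1.17-fold higher. *RT1-Ba*, *RT1-Db1*, *RT1-DMa* and *Ciita* ranged between 1.09-fold and 1.13-fold. The largest ratios belonged to the genes with the lowest coverage, *RT1-DOb* at 2.38-fold and *RT1-DOa* at 1.69-fold, both with TPM values under 2 in both libraries. The summed TPM of the members was 461 after 6 h of desflurane and 392 in the control.

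Each 6 h library was also set against the control of the other agent, which shares neither the animal nor the agent. Against the desflurane control, all 10 members were again lower after 6 h of sevoflurane (41.4% of genes with a mean TPM higher than 2 were), and 2 of them were called downregulated (2.64% of genes were): *RT1-Ba* at 2.44-fold and *RT1-Db1* at 2.40-fold. *Cd74* and *RT1-Da* were both 1.92-fold lower, *Ciita* 1.84-fold, *RT1-DMb* 1.57-fold and *RT1-Bb* 1.44-fold. *RT1-DMa*, at 1.17-fold, and *RT1-DOb*, at 1.13-fold, differed least. The median change was -0.56 for the members and 0.06 for all genes with a mean TPM higher than 2.

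Against the sevoflurane control, 9 of 10 members were lower after 6 h of desflurane, *RT1-DOa* was 1.31-fold higher, and none was called downregulated (1.64% of genes were) or upregulated (2.89% were). Of all genes with a mean TPM higher than 2, 36.0% were lower in this comparison. *Ciita* was 1.86-fold, *RT1-Ba* 1.56-fold and *Cd74* 1.45-fold lower, and the median change was -0.43, beside 0.09 for all genes. The comparisons with own and other control share the 6 h library, so they are not independent views of it.

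The controls themselves differed. All 10 members were lower in the control for desflurane than in that for sevoflurane (54.9% of genes with a mean TPM higher than 2 were), by a median of -0.69 compared with -0.02 for all those genes. *Ciita* alone was called downregulated (1.20% of genes were), at 2.02-fold. *RT1-Bb* and *RT1-Ba* were both 1.75-fold, *Cd74* 1.71-fold and *RT1-Da* 1.55-fold lower, and *RT1-DOb*, under the TPM limit, 4.08-fold. In every member but *RT1-DOa*, the value after 6 h of desflurane lay between those of the controls. By arithmetic, the ratio between controls is then larger than that between 6 h of desflurane and either control. It is therefore no measure of the spread between rats. The 3 comparisons share these controls.

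Between the 6 h libraries, all 10 members were higher with desflurane than with sevoflurane (58.2% of genes with a mean TPM higher than 2 were), and 5 of them met the rule for upregulation (2.80% of genes did). *RT1-Ba* was 2.75-fold, *RT1-Db1* 2.67-fold, *Cd74* 2.27-fold, *RT1-Da* 2.24-fold and *Ciita* 2.001-fold higher, the last just past the limit. *RT1-DMb* at 1.92-fold, *RT1-Bb* at 1.79-fold and *RT1-DMa* at 1.28-fold were under it. The median change was 0.84, beside 0.06 for all those genes.

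**Figure D2:**
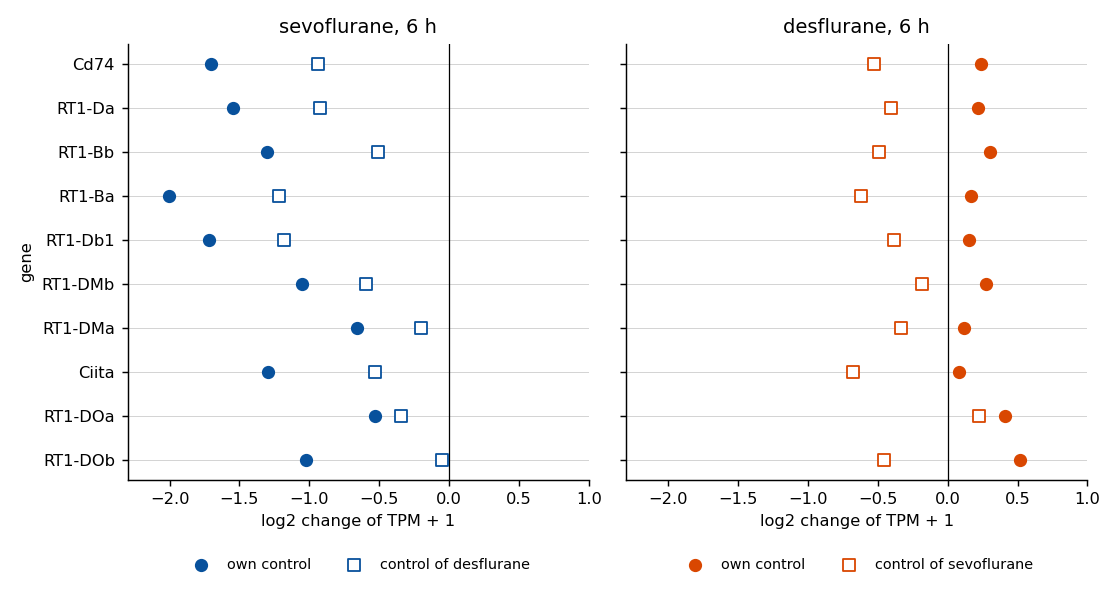
Change of each class II gene on the log2(TPM + 1) scale after 6 h of sevoflurane (left) or desflurane (right), against the control of the same agent (filled circles) and the control of the other agent (open squares), 1 library each. With sevoflurane all points lie below 0 with either control (medians -1.30 and -0.56), and with desflurane the members lie above 0 against their own control (10 of 10, or 9 of 10 with median-of-ratios scaling) and 9 of 10 below 0 against the other.

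The alpha and beta chains of a pair did not keep 1 ratio. *RT1-Ba* to *RT1-Bb* was 0.862 in both controls and 0.784 after 6 h of desflurane, but 0.511 after 6 h of sevoflurane, so the alpha chain was lower relative to its partner there. Reads of *RT1-Bb* cannot be told apart from those of *LOC688090*, an overlapping gene described below, so this ratio is uncertain. *RT1-Da* to *RT1-Db1* was 3.03, 3.58, 2.87 and 2.999, so the beta chain was the lower one with sevoflurane. *RT1-DMa* to *RT1-DMb* was near 0.80 in both controls, 1.08 after 6 h of sevoflurane and 0.715 after 6 h of desflurane. *RT1-DOa* to *RT1-DOb* ranged from 0.645 to 2.04, at the low coverage given above.

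Across classes, the ratio of *Cd74* to the summed RT1-B and RT1-D chains was the steadiest of those computed, at 1.49, 1.41, 1.41 and 1.43. The summed classical chains to the summed RT1-DM genes gave 7.28, 4.48, 6.30 and 6.30, lowest after 6 h of sevoflurane. RT1-DM to RT1-DO was 10.97, 18.97, 17.2 and 10.5. The ratio of *Cd74* to *Ciita* was 85.5, 97.0, 101.3 and 110, so *Cd74* and the gene of its coactivator stayed within a 1.29-fold range of each other while *Cd74* itself ranged 3.28-fold.

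**Figure D3:**
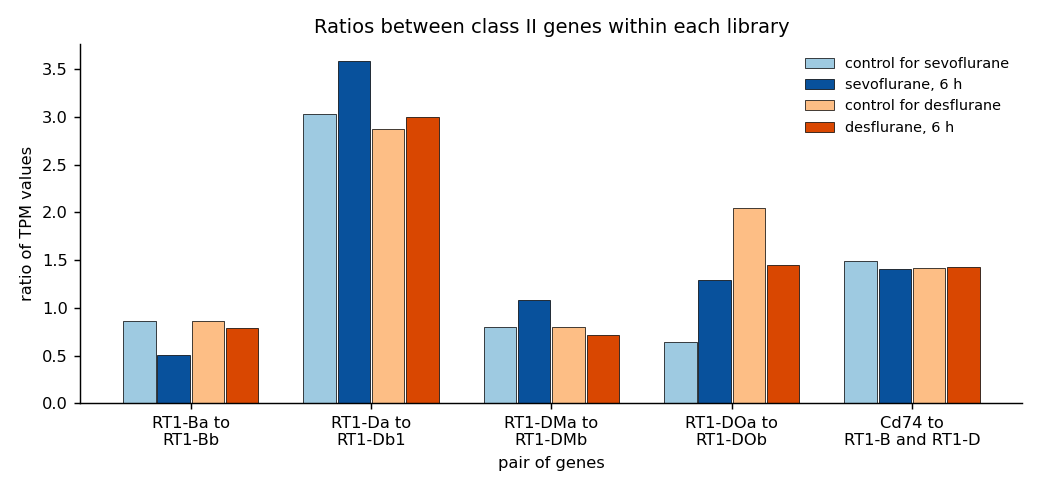
Ratio of TPM values for pairs of class II genes within each library (bars from 0, 1 bar per library, no replicates). *RT1-Ba* to *RT1-Bb* stands apart after 6 h of sevoflurane (0.511, others 0.784 to 0.862), and *Cd74* to the RT1-B and RT1-D chains stays between 1.41 and 1.49. The level of *RT1-Bb* is uncertain because *LOC688090* overlaps it on the same strand.

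The class II genes were next set beside markers of the cells that carry them. Of the macrophage markers, 20 of 21 were present, 19 with a mean TPM higher than 1, and their summed TPM was 1277, 783, 989 and 1113. After 6 h of sevoflurane 7 of these 20 genes were called downregulated, with a median of -0.68 compared with -1.30 for the class II genes. Below this macrophage median lay 8 of the 10 class II genes, and 4 lay below every 1 of the 20 macrophage genes. For 6 h of sevoflurane against the desflurane control, these counts were 8 and 0. They were 9 and 6 for the desflurane control against the sevoflurane control, so a pair of control rats differed in this way too. The ratio of summed class II TPM to summed macrophage TPM was 0.509, 0.268, 0.396 and 0.414, lowest after 6 h of sevoflurane.

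Among the macrophage genes named by rule, *C1qc*, a complement subunit made by Kupffer cells, had TPM values of 190, 124, 136 and 165. *Mpeg1*, a pore-forming protein of macrophages, had TPM values of 190, 95.8, 127 and 135. *Clec4f*, a lectin of Kupffer cells, had TPM values of 121, 76.5, 94.7 and 123. *Cd5l*, secreted by macrophages, was the furthest down at 2.72-fold, and *Cd14*, a coreceptor for lipopolysaccharide, was 1.23-fold higher with sevoflurane. The markers as a list were lower together with the class II genes, by a smaller median, and their part in the class II values was not tested. With desflurane, none of the 20 was called, and their median was 0.06, compared with 0.23 for the class II genes.

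B cell markers were low. Of 13, 11 were present, only 4 had a mean TPM higher than 1, and they summed to 17.1, 8.30, 14.2 and 12.8. *Cd79b*, part of the B cell receptor, had TPM values of 2.89, 0.300, 1.99 and 1.604, and *Bank1*, a B cell scaffold protein, 2.16, 0.475, 2.11 and 1.18. Both were called downregulated with sevoflurane, and *Cd22*, an inhibitory receptor, was not (5.36, 3.73, 5.29 and 5.05). The B cell median was -0.29 with sevoflurane and -0.11 with desflurane, and all 10 class II genes lay below it with the former and above it with the latter. In the desflurane control against the sevoflurane control, all 10 also lay below the B cell median, which was -0.02. When only the 4 genes with a mean TPM higher than 1 were kept, the difference between class II genes and B cell markers with sevoflurane narrowed from -1.01 to -0.46. Class II TPM summed to between 25.2 and 38.0 times that of the B cell markers, again lowest after 6 h of sevoflurane, and the part of B cells in the class II values was not tested.

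For the other carriers, the medians with sevoflurane were -0.09 over 8 markers of sinusoidal endothelium (summed TPM 326, 309, 311 and 352) and -0.37 over 12 dendritic cell markers (summed TPM 30.5, 19.02, 24.03 and 26.2), with no gene called in either list. Most dendritic cell markers were under the TPM limit of 2 in the sevoflurane control and could not be called. Of the 12, 9 were lower with sevoflurane and 3 higher. All 10 class II genes lay below every endothelial marker with sevoflurane, and also in the desflurane control against the sevoflurane control. Markers of all leukocytes had a median of -0.64 with sevoflurane, with 3 of 11 called, and a summed TPM of 156, 83.6, 122 and 115. Only 4 of 16 T and NK cell markers passed the TPM limit of 2 in the sevoflurane control, and all 4 were called downregulated with sevoflurane. The median of the 16 markers was -0.35, on a scale that understates the change of genes with low levels. They summed to 16.4, 5.75, 11.1 and 12.3, 2.86-fold lower with sevoflurane compared with 3.10-fold for the class II genes, so class II TPM stood at 39.5, 36.4, 35.2 and 37.5 times that sum, the narrowest range among the 6 immune and endothelial lists. *Cd3d* and *Cd3g*, which encode chains of the T cell receptor complex, were listed at 0 in at least 1 library, as was the dendritic cell gene *Fcer1a*. In none of these lists was a gene called with desflurane. Hepatocyte markers had medians of -0.08 with sevoflurane and 0.11 with desflurane.

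**Figure D4:**
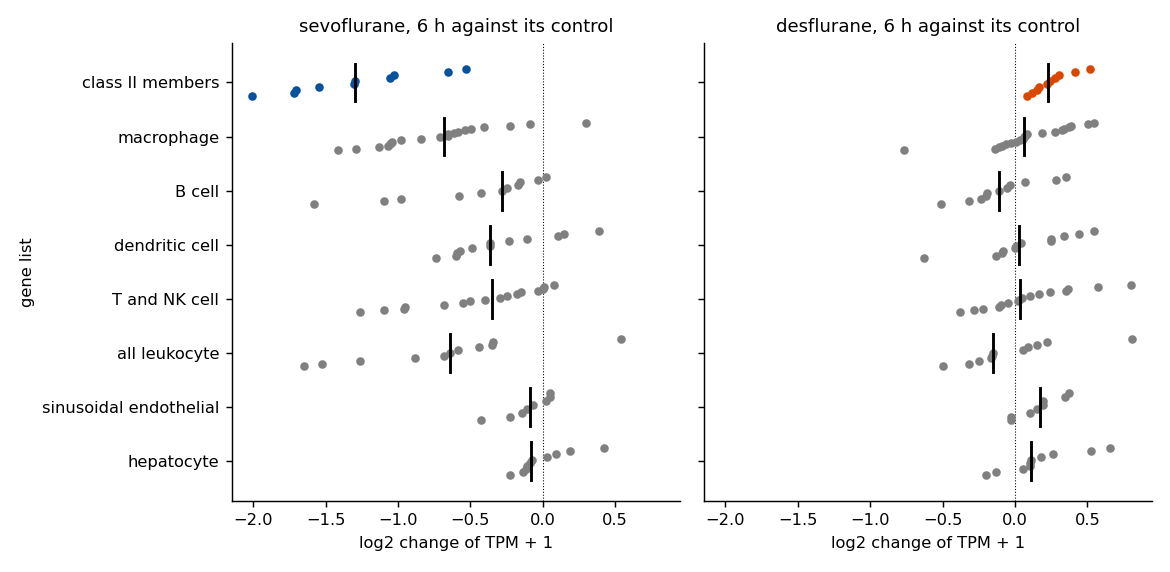
Change on the log2(TPM + 1) scale of each gene (points) and the median (bar) for the class II genes and 7 lists of cell type markers, 6 h of each agent against its own control, 1 library each. With sevoflurane the class II median (-1.30) lies below the medians of macrophage (-0.68), B cell (-0.29) and endothelial (-0.09) markers, and with desflurane it lies at 0.23 beside 0.06, -0.11 and 0.17.

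The next list held the factors that hold *Ciita* at the X and Y boxes shown above. Of 7 genes for RFX, CREB and NF-Y subunits, none was called with either agent, and their medians were 0.13 with sevoflurane and -0.14 with desflurane. *Rfx5*, the DNA-binding subunit of the RFX complex, had TPM values of 5.11, 2.95, 5.33 and 4.25. *Rfxank*, another RFX subunit, had TPM values of 5.68, 10.2, 5.63 and 7.78, and *Rfxap* 6.34, 6.36, 5.72 and 6.58. *Rfxank* was thus higher after 6 h of sevoflurane, whereas *Rfx5* was 1.73-fold lower than in its control and lowest in that library, as the class II genes were.

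Of the Y box factors, *Nfya* had TPM values of 5.89, 9.95, 6.76 and 6.02. *Nfyb* had TPM values of 15.9, 13.5, 20.4 and 11.3, and *Nfyc* 23.2, 26.3, 21.9 and 28.8. *Creb1*, a factor that joins the complex at the X box region, had TPM values of 14.5, 15.9, 16.0 and 13.0. None of these 7 factors had the library order of the class II genes.

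Interferon gamma is the classical inducer of *Ciita*. Its own gene, *Ifng*, was listed at a TPM value of 0.44 in the sevoflurane control and at 0 in the other libraries. *Irf1*, an interferon-induced factor that binds the *Ciita* gene, had TPM values of 23.8, 4.71, 19.1 and 8.65. *Irf1* was called downregulated with sevoflurane and also with desflurane, where no class II gene was called. In the paper's qPCR of several livers per condition, *Irf1* was lower with both agents as well. The receptor gene *Ifngr1*, at TPM values of 31.4, 32.2, 28.7 and 38.5, and *Jak1*, a receptor kinase, at 105, 100.5, 103 and 107, had no such pattern. *Jak2*, the other receptor kinase, had TPM values of 13.5, 8.33, 10.2 and 9.41, 1.62-fold lower with sevoflurane. Of the 9 genes in this list, 7 were lower with sevoflurane and 2 higher. Its medians were -0.52 with sevoflurane, which is the value of *Ifng* itself, and 0 with desflurane.

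Proteases and other proteins that prepare peptides or turn over class II molecules were not called with sevoflurane in any of 14 genes (median -0.13). *Ctss*, the cathepsin that trims the invariant chain in antigen-presenting cells, was 1.87-fold lower, with TPM values of 98.4, 52.7, 68.1 and 94.5. *Ctsl*, a broadly expressed cathepsin, had TPM values of 504, 654, 485 and 878. *Ifi30*, a lysosomal reductase that opens disulfide bonds in antigens, had TPM values of 59.2, 62.8, 56.9 and 62.5, so its level stayed in a narrow range while that of its class II partners did not. With desflurane 2 of the 14 were called upregulated, both from TPM values under 2 (median of the list 0.22). They were *Ctse*, an endosomal aspartic protease, and *Marchf1*, a ubiquitin ligase that removes class II molecules from the surface. Both were also under the TPM limit in the sevoflurane control, so neither could be called downregulated with sevoflurane. After 6 h of sevoflurane *Marchf1* was 4.38-fold and *Ctse* 1.39-fold lower, at low coverage.

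Among 11 genes for partners at the contact with T cells, only *Cd274*, which encodes the inhibitory ligand PD-L1, was called with sevoflurane (TPM values of 5.37, 2.34, 4.80 and 3.91), and none with desflurane. *Cd4*, the coreceptor that binds class II molecules, had TPM values of 19.1, 18.3, 21.8 and 23.3, and the medians were -0.06 and -0.19. Of 14 genes of MHC class I loading, 3 were called downregulated with sevoflurane and none with desflurane, with medians of -0.47 and -0.28. *B2m*, the light chain of class I molecules, had TPM values of 982, 637, 769 and 809, an order of libraries like that of the class II genes.

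Those 3 class I genes, *Tap1*, *Psmb8* and *Psmb9*, lie between the class II genes on chromosome 20. The interval held 7 annotated genes besides the 8 members. With sevoflurane 6 of these 7 were lower and 4 were called downregulated, and with desflurane 5 of the 7 were lower and none was called. These counts include *LOC688090*, which shares reads with *RT1-Bb* and was among the 4, and *RT1-Db2*, itself a class II gene. They were the only genes of the 7 that were higher with desflurane. *Tap1*, a subunit of the class I peptide transporter, had TPM values of 57.1, 16.6, 30.4 and 23.7. *Psmb8* and *Psmb9*, subunits of the immunoproteasome, had TPM values of 53.2, 17.1, 45.6 and 32.2 and of 50.2, 16.0, 38.8 and 26.9. With sevoflurane the changes of these genes lay in the range of the class II genes, whereas after 6 h of desflurane all 3 were lower than their own control. The 8 class II genes around them were higher by their summed TPM, but for *RT1-DMa* this came from the copy outside the interval.

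*Tap2*, the partner of *Tap1*, had TPM values of 19.5, 14.6, 21.7 and 16.0. *Brd2*, a chromatin reader that is not part of antigen presentation, had TPM values of 41.1, 54.0, 48.5 and 48.1 and was higher after 6 h of sevoflurane. It was the only gene of the interval with a higher value in that comparison. *RT1-Db2*, a class II beta chain gene outside the list, had TPM values of 1.83, 0.435, 0.551 and 0.989, in the library order of *RT1-Db1* but under the TPM limit. *LOC688090*, with TPM values of 38.7, 14.3, 24.7 and 28.9, overlaps *RT1-Bb* on the same strand, so reads of these genes cannot be told apart.

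**Figure D5:**
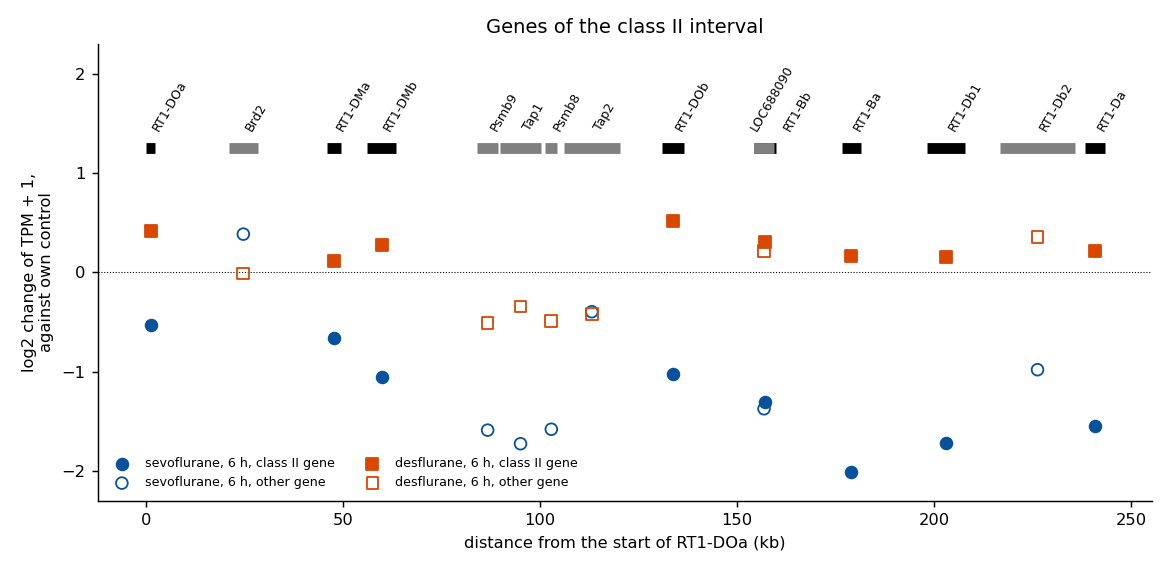
Change on the log2(TPM + 1) scale of the 15 annotated genes of the class II interval against their distance from the start of *RT1-DOa* in kb, after 6 h of sevoflurane (circles) or desflurane (squares) against the own control. Filled symbols and black bars are class II genes of the list and open symbols and grey bars are other genes. The 8 class II genes lie below 0 with sevoflurane and above 0 with desflurane (*RT1-DMa* and *RT1-DMb* with both copies summed, of which the *RT1-DMa* copy inside the interval was lower with desflurane), the block from *Psmb9* to *Tap2* lies below 0 with both agents, and *Brd2* is at 0.38 and -0.01.

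Genes with a like pattern were sought among 7920 genes with a mean TPM higher than 5. The log2(TPM + 1) values of each gene were centred on their mean over the 4 libraries, and the root mean square difference to the median of the 8 members above the TPM limit was taken. The reference pattern was 0.65, -0.78, -0.03 and 0.23. The nearest gene was *LOC688090* (0.03), which shares reads with *RT1-Bb* as described. *Cd53*, a tetraspanin of leukocytes, followed at 0.07, with *Il33*, an alarmin cytokine, and *Nr1i3*, the nuclear receptor CAR of hepatocytes, both at 0.09. *Ccl6*, a chemokine, and *Ptprc*, the leukocyte antigen CD45, were at 0.10. The paper's qPCR of several livers per condition found *Ccl6* and *Il33* lower with sevoflurane but not with desflurane. *Klrk1*, an NK cell receptor gene, was at 0.11, and *RT1-CE12*, a class I gene, *Pim1*, a kinase gene, and *Limd2* were at 0.12.

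The members' own distances to this pattern ran from 0.07 for *RT1-Da* to 0.30 for *RT1-DMa* and 0.33 for *RT1-DOa*. Nearer to the pattern than *RT1-DMa* were 165 of the 7920 genes, and nearer than *Cd74* were 4. The list of 10 like genes holds genes of leukocytes as well as *Nr1i3*, and it rests on 4 libraries, in which many genes share an order. RefSeq promoters were found for 9 of these 10 genes, with 2 for *Il33* and no entry for *LOC688090*, and none of these 10 promoters held the X and Y letters shown above. The letters were chosen on class II promoters and are in only 6.32% of all promoters, so their absence here sets no gene apart.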

How the data were processed

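Liver RNA of 4 rats was sequenced, 1 library per condition, and conditions were taken from the labels. The authors trimmed the reads with sickle, aligned them to rn6 with HISAT2, sorted them with SAMtools and ran StringTie with the refGene annotation. The kit is named differently in the labels (TruSeq Stranded Total RNA Gold) and in the paper (Ribo-Zero Plus). The deposited tables give the average coverage of each gene (a signal not normalized for library size), FPKM values normalized by the authors for library size, and TPM values, scaled in the deposited tables so that the rows assembled by StringTie sum to 1000000. The annotated rows share this scale, with sums between 779824 and 813454. Assembled rows (21770 to 23290 per library) were used only in the closing section.

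Annotated rows longer than 200 base pairs were kept and TPM was summed per symbol. Calls followed the rule of the study, a TPM value higher than 2 in the higher state and a difference of more than 2-fold without a pseudocount. Medians used log2(TPM + 1). No test was made, since each condition has 1 library. The aligned sequence per library was estimated by dividing coverage by FPKM and taking the median over rows. In the desflurane control, *Ciita* had a higher TPM relative to its coverage than the other members. The members, gene lists and comparisons were chosen with earlier results of these data known, so counts over them are descriptions and no independent evidence. Named genes were all 10 members, the class II promoter factors, *Ifng*, *Irf1*, *Ctss*, *Ifi30*, genes inside the class II interval and the 10 genes of most like pattern. Of each list, the rule also took the 3 most abundant genes and those with the lowest and highest fold with each agent. Only part of these are named. Those left out include *Lyz2* and *C1qb*, the macrophage genes with the lowest and highest fold with desflurane. *Marchf1*, *Nfya*, *Rfxap* and genes at 0 follow from a count or list given in full, and *Jak2* was added beside *Jak1*. A result under this rule is not reported here. Alternatives covered TPM, fold and coverage limits, pseudocounts, scaling, FPKM, 1 row per gene, the mean of both controls and the summary of marker lists. Calculations used Python 3.11.15, numpy 2.4.6 and pandas 2.3.3, and the call rule was tested on simulated data. Promoters came from RefSeq (GRCr8), whose coordinates are not those of rn6.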

Additional observations from a re-analysis of the deposited data

Results flagged for a closer look

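All 10 class II genes were lower after 6 h of sevoflurane and higher after 6 h of desflurane, each against its own control, with 1 library per condition, and this difference was not tested. The log2(TPM + 1) change with sevoflurane minus that with desflurane was -2.17 for *RT1-Ba*, -1.94 for *Cd74*, -1.87 for *RT1-Db1*, -1.77 for *RT1-Da* and -1.61 for *RT1-Bb*. It was -1.55 for *RT1-DOb*, -1.38 for *Ciita*, -1.33 for *RT1-DMb*, -0.95 for *RT1-DOa* and -0.77 for *RT1-DMa*. The classical chains and *Cd74* thus had the widest separation and *RT1-DMa* the narrowest. The opposite direction rests on the scaling and the controls used. Under median-of-ratios scaling *Ciita* was lower with both agents, with desflurane only marginally, at a ratio of 0.996. Against the sevoflurane control 9 of the 10 genes were lower with desflurane too.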

How the results depend on the processing

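No paired analysis was possible because each condition has 1 library and no replicate numbers. No replicate could be left out for the same reason. Of the values that answer a comparison, 207 alternatives gave the same reading, 22 moved, 4 were reversed, 8 were stronger and 9 weaker. Counts were taken as the same within 1.5-fold and medians within 0.2. No call of a single gene was reversed. The 7 genes called lower with sevoflurane became 9 at a TPM limit of 1 or with none, 8 at a fold limit of 1.5, 6 at a TPM limit of 5 and 4 at a fold limit of 3. The 2 called against the desflurane control became 6 at a fold limit of 1.5, 0 at 3 and 4 with median-of-ratios scaling. The 1 called between the controls became 2 at a TPM limit of 1 and with no limit, 5 at a fold limit of 1.5, and 0 at a TPM limit of 5, a fold limit of 3, with median-of-ratios scaling, with annotated rows rescaled to 1 sum and with FPKM. The 0 called higher with desflurane became 1 at a TPM limit of 1 or with none (*RT1-DOb*), and the 0 lower against the sevoflurane control became 2 at a fold limit of 1.5. The 5 called between the 6 h libraries became 7 at a TPM limit of 1, with no limit and at a fold limit of 1.5. They became 4 at a TPM limit of 5, 0 at a fold limit of 3 and 2 with FPKM. The median with sevoflurane (-1.30) was -1.64 with a pseudocount of 0.1, -0.99 with 5 and -0.96 against the mean of both controls. With desflurane (0.23) it was -0.14 against that mean, a reversal. Against the desflurane control the sevoflurane median (-0.56) was -0.78 with a pseudocount of 0.1 and -0.92 with a coverage limit of 5. The median between the 6 h libraries (0.84) was 1.17 with a pseudocount of 0.1, 0.59 with FPKM and 1.14 with the coverage limit, and that between controls (-0.69) was -0.43 with a pseudocount of 5. Relative to macrophage markers, the sevoflurane difference (-0.62) was -0.85 with a pseudocount of 0.1 and -0.93 from summed TPM, that against the desflurane control (-0.25) -0.45 and -0.57, that between the 6 h libraries (0.30) 0.62 and 0.63, and the desflurane difference (0.17) reversed to -0.075 against the mean of controls. Relative to B cell markers, the sevoflurane difference (-1.01) was -0.59 against the mean of controls, -0.46 with markers of mean TPM higher than 1 and -0.59 from summed TPM. That against the desflurane control (-0.28) reversed to 0.30 with those markers, and that of desflurane against the sevoflurane control (-0.16) reversed to 0.35 with a pseudocount of 0.1 and was -0.38 with FPKM. Between the 6 h libraries (0.67) it was 0.057 with those markers, between controls (-0.67) -0.46 from summed TPM, and with desflurane (0.34) 0.025 against the mean of controls. The causes were not tested. Median-of-ratios scaling moved the median of all genes with desflurane from 0.11 to -0.00, and the members lay 0.12 and 0.11 above it. FPKM moved it from 0.09 to -0.12 for desflurane against the sevoflurane control, from -0.02 to -0.16 between controls and from 0.06 to -0.11 between the 6 h libraries, and members minus all genes went from -0.53 to -0.48, from -0.67 to -0.48 and from 0.78 to 0.70. Low coverage limits the RT1-DO genes, *Ciita* and the B cell markers, and with 1 rat per condition the spread between animals is unknown.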

Other observations

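The tables also hold blocks that StringTie assembled from the reads without a gene symbol, and those on *RT1-Ba* and *RT1-Db1* were read as another view of these genes. They were chosen after the data had been seen and come from the same reads. The block on *RT1-Ba* (rn6 chromosome 20, 4066535 to 4067230) had TPM values of 60.4, 12.3, 33.1 and 41.2 in the order sevoflurane control, 6 h of sevoflurane, desflurane control, 6 h of desflurane. It was 4.92-fold lower with sevoflurane and 1.246-fold higher with desflurane, each against its own control. The block on *RT1-Db1* (4095048 to 4096996) had TPM values of 103, 18.2, 43.3 and 47.2, a 5.66-fold difference with sevoflurane. Its coverage divided by aligned Gb was 20.9, 6.90, 15.02 and 15.5, a 3.02-fold difference, so the size of the change in this block depended on which column was read.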
